A study of Mus musculus with 36 samples.

Results

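Chil1 is 1 of the 43472 genes listed in a count table of primary embryonic neurosphere-derived enteric glial cells (EGCs), and its row was followed across the 9 groups of the study. It was chosen because it stood out in the same libraries as a gene present late in EGCs exposed to tumor medium, so its levels and fold changes are given below as a description and without a test. Wild-type EGCs were grown from the intestines of C57BL/6J mouse embryos as neurospheres and then differentiated in medium with serum, and all groups share this origin. They were left unstimulated, or received either medium conditioned by digested healthy colon (H-CM) or medium conditioned by digested orthotopic MC38 colon tumors (TME-CM), where MC38 is a mouse colon carcinoma line. RNA was taken after 6, 12 or 24 h, with 4 libraries for each of the 9 groups and 36 in all. The labels do not say whether the 4 libraries of a group came from separate cultures, so the spread between them, and each p-value given for other genes, may be partly technical.

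Chil1 encodes chitinase 3-like 1, a secreted glycoprotein that keeps the fold of a chitinase and binds chitin-like sugars but has lost the catalytic activity. It acts as a signal: the IL-13 receptor subunit α2 with its partner Tmem219, as well as CD44, galectin-3 and syndecan-1 together with an αv integrin, have been described as its binding partners. In the nervous system it is known as a product of reactive astrocytes, and in the intestine it is made by epithelium, macrophages and neutrophils during inflammation.

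The gene lies on the plus strand of chromosome 1, at 134182176 to 134190181 in the GENCODE M21 annotation of GRCm38, the assembly also called mm10. The annotation gives it 8 transcripts, 5 of them coding, and 10 exons in the longest coding one. No other annotated gene shared exon bases with it or overlapped its span, and none of the 1081 stretches of 50 bases in the last 500 bases of its coding transcripts, where a 3′ library reads, occurred in the transcript of another gene. A copy of this 3′ end that is identical over 50 bases is therefore absent from this annotation, and copies with scattered mismatches were not searched. Whether counting used strand is not given in the sources used here. The 250 bases before the RefSeq start (GRCm38.p6, chr1:134181906-134182155, plus strand) are shown because the counts below go from absent to present in one condition, with capitals for the letters of the motifs that were found.
Chil1: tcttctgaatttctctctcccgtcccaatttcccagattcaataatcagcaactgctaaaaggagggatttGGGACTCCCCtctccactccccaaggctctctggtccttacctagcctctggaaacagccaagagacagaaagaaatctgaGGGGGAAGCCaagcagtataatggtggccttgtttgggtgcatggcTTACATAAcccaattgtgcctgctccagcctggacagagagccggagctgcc
The motifs of 6 factors were searched on both strands. The NF-κB pattern, written as 3 G, any 5 bases and 2 C, was found at 2 places, from base 179 and from base 98 before the start, and the first of these reads as the pattern on both strands, and 45.4% of 27025 mouse promoter windows of this length hold the pattern. The C/EBP pattern TTNNGNAA was found once, from base 52, beside 36.9% of all windows. This match is on the minus strand, so the capitals TTACATAA show its reverse complement. The patterns TTCNNNGAA for STAT (7.18% of windows), TGANTCA for AP-1 (6.87%), TATAAA for the TATA box (13.0%) and GAGGAA for PU.1 (23.1%) had no match in these 250 bases. These matches describe letters and not bound sites.

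At 6 h, Chil1 was nearly absent everywhere. The 4 unstimulated libraries held 3, 0, 0 and 0 counts, the 4 H-CM libraries 0, 1, 0 and 0, and the 4 TME-CM libraries 0 each, in the order of replicates 1 to 4. The pooled depth of the 4 TME-CM libraries was 13644010 counts, so a count of 0 allows up to 0.244 CPM (counts scaled to a common library size with edgeR's TMM method), taking 3 counts over the group as the limit. Taken singly, the 4 TME-CM libraries allow between 0.663 and 2.86 CPM. Among the controls, unstimulated replicate 3 allows up to 15.7 CPM and H-CM replicate 4, with 13518 counts in all, up to 110 CPM. The 0 of H-CM replicate 4 thus excludes no level of Chil1 seen later. That of unstimulated replicate 3 does not exclude 2 of the 4 levels seen in TME-CM at 12 h. The TME-CM and H-CM libraries of 6 h were free of overlap for 4.13% of 9256 genes. These limits, and the intervals below, cover counting error only.

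At 12 h, Chil1 was present in all 4 TME-CM libraries, with 85, 15, 78 and 39 counts, or 17.3, 5.99, 15.8 and 10.002 CPM. The H-CM libraries held 7, 1, 0 and 1 counts, or 1.88, 0.176, 0 and 0.146 CPM, and the unstimulated libraries 0, 0, 0 and 2 counts, the last being 0.273 CPM. The lowest TME-CM library thus lay 3.19-fold above the highest H-CM library, and the 2 groups did not overlap, as was so for 7.23% of the 12156 genes tested at 12 h in either direction. Over 4 libraries each, the means with SD were 12.3 ± 5.24 CPM for TME-CM, 0.550 ± 0.889 CPM for H-CM and 0.0683 ± 0.137 CPM without stimulation.

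At 24 h, the TME-CM libraries held 191, 96, 228 and 84 counts, or 27.5, 36.8, 30.6 and 14.1 CPM. The H-CM libraries held 6, 3, 2 and 0 counts, or 1.19, 0.485, 0.218 and 0 CPM, and the unstimulated libraries 1, 0, 0 and 0 counts, the first being 0.250 CPM. The lowest TME-CM library lay 11.8-fold above the highest H-CM library. A lack of overlap between the 2 groups, of any size and in either direction, was seen for 11.2% of the 12713 genes tested at 24 h. Over 4 libraries each, the means with SD were 27.2 ± 9.58 CPM for TME-CM and 0.474 ± 0.519 CPM for H-CM, and the mean without stimulation was 0.0626 CPM from its 1 count. In TME-CM EGCs at 24 h, 73.8% of the 18931 genes with a count had a mean at or below that of Chil1, so it was a gene of moderate abundance there. In bulk RNA, more cells with the transcript and more transcript in each cell cannot be told apart.

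**Figure D1:**
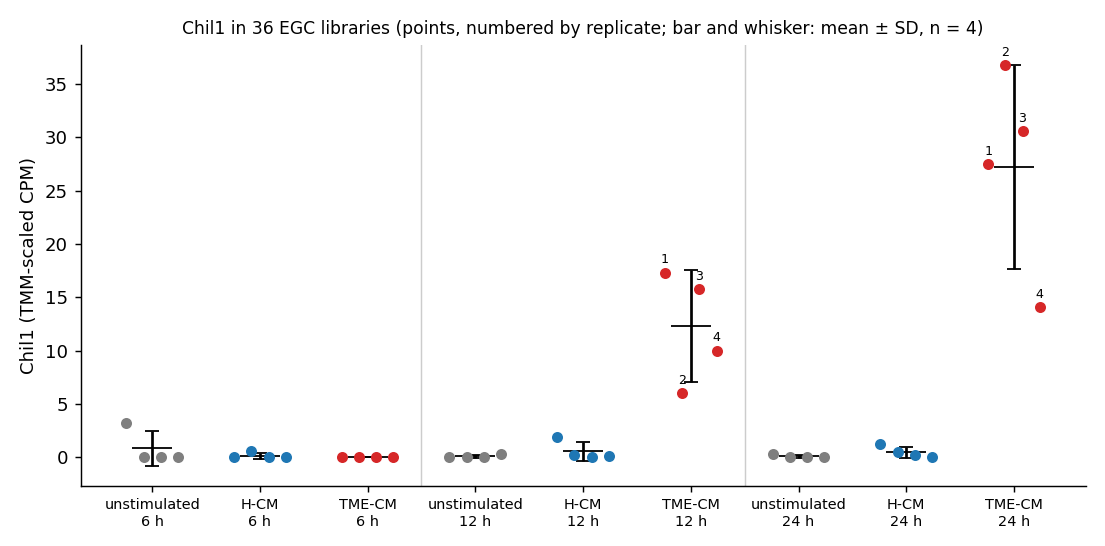
Chil1 in each of the 36 libraries, as TMM-scaled CPM on a linear axis, by group and time. Points are libraries, numbered by replicate where they exceed 5 CPM, and the bar with whiskers is the mean ± SD of 4 libraries. The 8 TME-CM libraries of 12 h and 24 h sit between 5.99 and 36.8 CPM, and the other 28 libraries at or below 3.23 CPM.

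Ordered by mean, TME-CM at 24 h came first and TME-CM at 12 h second, followed by unstimulated EGCs at 6 h (0.809 CPM), H-CM at 12 h (0.550), H-CM at 24 h (0.474), H-CM at 6 h (0.132), unstimulated at 12 h (0.0683), unstimulated at 24 h (0.0626) and TME-CM at 6 h (0). Only 1 step in this order was free of overlap between neighbouring groups: the lowest TME-CM library of 12 h (5.99 CPM) lay above the highest unstimulated library of 6 h (3.23 CPM, which rests on 3 counts). The TME-CM groups of 12 h and 24 h overlapped, since replicate 4 of 24 h (14.1 CPM) lay below replicates 1 and 3 of 12 h.

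On pooled counts, Chil1 was 30.6-fold higher in TME-CM than in H-CM EGCs at 12 h (95% counting interval 15.8 to 67.9) and 53.1-fold higher at 24 h (29.5 to 107). Against unstimulated EGCs the ratio was 104 at 12 h (28.3 to 861) and 664 at 24 h, where the single count in the unstimulated libraries leaves an interval from 119 to 26263. From 12 h to 24 h in TME-CM the pooled level rose 1.95-fold by this ratio, with a counting interval of 1.67 to 2.29 that does not include the spread between libraries. Against TME-CM at 6 h, with the limit of 3 counts over that group, the level was at least 50.4-fold higher at 12 h and at least 112-fold higher at 24 h.

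**Figure D2:**
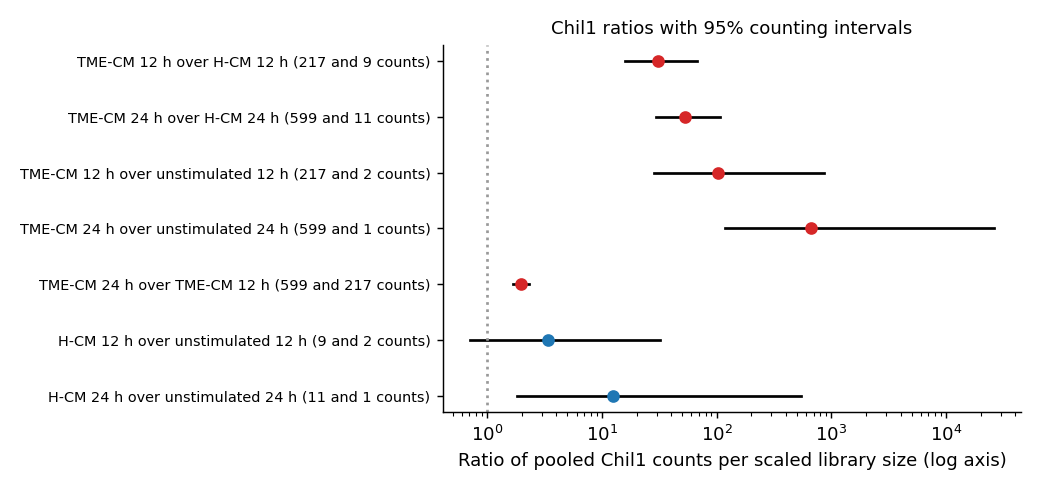
Ratios of pooled Chil1 counts per scaled library size between pairs of groups, on a log axis, with exact 95% intervals for counting error. The TME-CM to H-CM ratios are 30.6 at 12 h and 53.1 at 24 h, the ratio of 24 h to 12 h in TME-CM is 1.95, and the interval of H-CM to unstimulated at 12 h crosses 1.

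Fitted with edgeR over all genes of a time point, the log2 fold change of Chil1 for TME-CM over H-CM was 4.59 (SE 0.88) at 12 h, the 15th highest of 12156 genes, and 5.70 (SE 0.48) at 24 h, the fifth highest of 12713. At 6 h Chil1 did not pass the filter on low counts and has no fitted value. Without H-CM replicate 1 the log2 fold change became 6.43 at 12 h and 6.46 at 24 h, since that library held 7 of the 9 H-CM counts at 12 h and 6 of the 11 at 24 h. Between 24 h and 12 h in TME-CM it was 1.12 (SE 0.50), which placed Chil1 at rank 384 of 13105 genes, a place it reached with groups that overlap.

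The small signal under H-CM was uneven. H-CM replicate 1 carried most of it at both times, and without that library the H-CM mean at 12 h fell from 0.550 to 0.107 CPM and at 24 h from 0.474 to 0.234 CPM. The pooled ratio of H-CM to unstimulated EGCs was 3.38 at 12 h (95% counting interval 0.70 to 32.2) and 12.5 at 24 h (1.82 to 538), on 9 against 2 and 11 against 1 counts. Over all genes, 2.03% were called between H-CM and unstimulated EGCs at 24 h (1.07% higher and 0.96% lower), and 8.17% did not overlap, which Chil1 did. The fitted log2 fold change at 24 h was 3.09 (SE 1.09), 4.66 without unstimulated replicate 1 and 2.34 without H-CM replicate 1. A level of Chil1 in H-CM EGCs above that of unstimulated EGCs was therefore not resolved at 12 h, and at 24 h it rests on 12 counts in all.

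Among the TME-CM replicates the coefficient of variation was 42.7% at 12 h and 35.2% at 24 h, of which counting error alone would give 14.7% and 8.72%. The highest library exceeded the lowest 2.89-fold at 12 h and 2.61-fold at 24 h. The order of the replicate numbers was not kept between the times, as replicate 2 was the lowest at 12 h and the highest at 24 h.

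The timing of Chil1 was late among the genes that were higher in TME-CM. Of the 12713 genes tested at 24 h, 349 were called higher under TME-CM than under H-CM by edgeR's quasi-likelihood test at an adjusted p below 0.05 (2.75% of those tested, with 2.65% called lower), and as a median over these 349 the TME-CM mean at 12 h already stood at 94.1% of the 24 h mean and that at 6 h at 74.7%. Chil1 stood at 45.1% at 12 h and at 0% at 6 h, and 21 of the 349 genes had a lower percentage at 12 h. Of the 349 genes, Gm26902 also had no count at 6 h, and it stood at 91.0% at 12 h. Chil1 was left in when the 349 were counted. Since Chil1 was chosen for its pattern in these libraries, no call is made for it, and its place beside the 349 is a description only. Among the 8142 genes whose TME-CM mean at 24 h was 10 CPM or more, Chil1 was the only 1 without a count in the 4 TME-CM libraries of 6 h. With the limit at 5 CPM it was 1 of 7 such genes among 9931. With up to 3 counts allowed at 6 h, it was 1 of 5 genes at 10 CPM or more and 1 of 34 at 5 CPM or more.

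**Figure D3:**
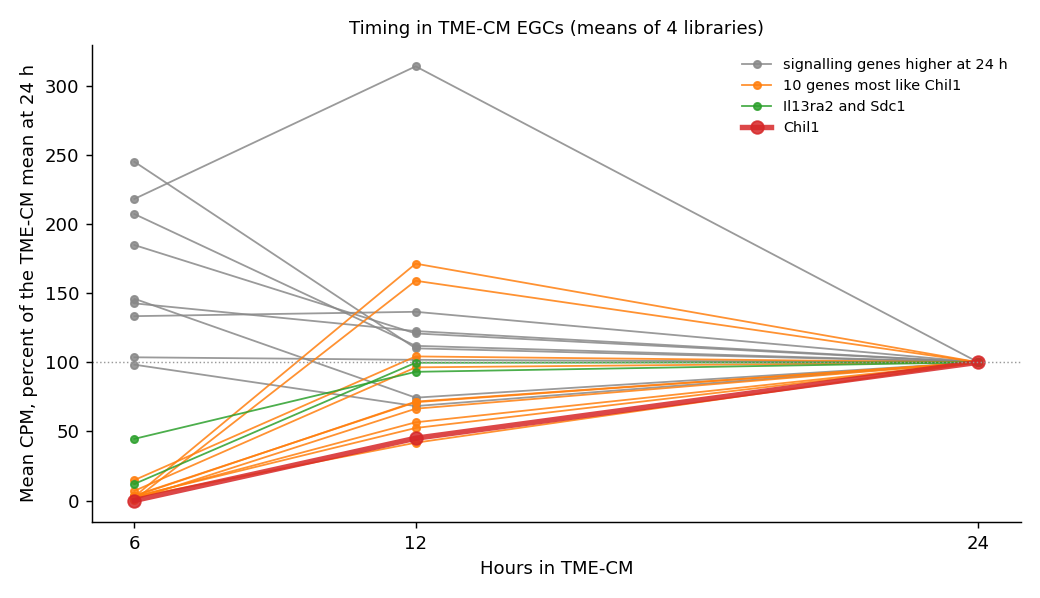
Mean CPM of 4 TME-CM libraries at each time as a percentage of the mean at 24 h, on a linear axis, for Chil1, the 10 genes most like it, Il13ra2 and Sdc1, and the 9 signalling genes called higher at 24 h. Chil1 goes from 0% through 45.1% to 100%, while the signalling genes lie between 98.3% and 245% at 6 h.

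Most other members of the chitinase family were at or near 0 in these cells. Of 9 further family members in the table, Chil3, Chil4, Chil5, Chil6, Chit1, Chia1 and Ovgp1 were too low to be tested at 12 h or 24 h. Chil3, a macrophage product also called Ym1, had 3 counts in the 4 TME-CM libraries of 24 h and none elsewhere, and Chil4 and the true chitinase Chit1 had 0 counts in all 36 libraries. Ovgp1, an oviduct glycoprotein of the family, reached 75 counts over the TME-CM libraries of 6 h (mean 6.27 CPM) and 0 at 24 h. The lysosomal members were measurable in every group of 12 h and 24 h: Chid1 stood at 21.1 ± 5.03 CPM in TME-CM and 17.3 ± 1.12 CPM in H-CM EGCs at 24 h (SD, n = 4, log2 fold change 0.26, SE 0.24), and Ctbs, a chitobiase, at 4.73 ± 0.70 and 3.38 ± 0.40 CPM (0.48, SE 0.47). By edgeR 0 of these 2 genes were called at 24 h, with 0 at an unadjusted p under 0.05 and 0 by DESeq2, where 5.4% of all genes were called, so 2 genes say little about the family. At 12 h Chid1 stood at 22.4 ± 3.68 CPM in TME-CM and 13.1 ± 2.89 CPM in H-CM, with no overlap of the libraries, as for 7.23% of all genes, and was not called (log2 fold change 0.78, SE 0.29, adjusted p = 0.255, edgeR). At 6 h its libraries were free of overlap in the other direction, as for 4.13% of all genes in either direction. It stood there at 7.47 ± 5.38 CPM in TME-CM and 24.6 ± 9.10 CPM in H-CM and was not called (log2 fold change -1.61, SE 1.23, adjusted p = 0.9115, edgeR).

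Of the described binding partners of the protein, Il13ra2 and Sdc1 rose in TME-CM, 2 of the 7 that were tested, where 5.4% of all genes were called at 24 h and 1.89% at 12 h (1.22% higher and 0.675% lower). Il13ra2, the receptor subunit, ranged from 18.4 to 38.0 CPM in the TME-CM libraries of 12 h and from 19.9 to 34.3 CPM at 24 h. The H-CM libraries lay between 0.704 and 4.10 CPM and between 0.873 and 6.77 CPM at the same times, so the groups did not overlap. Its log2 fold change was 3.49 (SE 0.53, adjusted p = 0.000864, edgeR) at 12 h and 3.37 (SE 0.46, adjusted p = 0.000151, edgeR) at 24 h. Unlike Chil1, Il13ra2 stood at 99.7% of its 24 h level at 12 h and at 12.0% at 6 h, where 3 of 4 TME-CM libraries had counts. With all 36 libraries in 1 model edgeR's adjusted p at 24 h was 0.0624 and the call was lost. Without H-CM replicate 1 the log2 fold change at 24 h was 4.40. Against unstimulated EGCs, H-CM had a log2 fold change of 2.74 for Il13ra2 at 24 h (adjusted p = 0.0483, edgeR), and leaving out a single library ended this call in 6 of 8 cases, the exceptions being H-CM replicates 2 and 3.

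Sdc1, the heparan sulfate proteoglycan syndecan-1, ranged from 97.0 to 116 CPM in TME-CM and from 39.8 to 52.6 CPM in H-CM at 24 h. Its log2 fold change was 1.20 (SE 0.15, adjusted p = 1.97e-05, edgeR) at 24 h and 1.29 (SE 0.23, adjusted p = 0.00251, edgeR) at 12 h. At neither time was Sdc1 called with all 36 libraries in 1 model (adjusted p = 0.323 at 24 h and 0.191 at 12 h, edgeR). The 5 other tested partners were present at levels that the test did not separate at 24 h: Cd44 at 335 ± 34.4 CPM in TME-CM and 289 ± 41.2 CPM in H-CM EGCs, Lgals3, which encodes galectin-3, at 353 ± 89.6 and 417 ± 27.9 CPM, Tmem219 at a log2 fold change of -0.39 (SE 0.34), and the integrin genes Itgav and Itgb3 at 0.07 (SE 0.17) and 0.26 (SE 0.17). Ager, the RAGE receptor, and Ptgdr2, the CRTH2 receptor, were too low to be tested. The median log2 fold change over the 7 was 0.21, beside 0.00 over all genes tested.

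**Figure D4:**
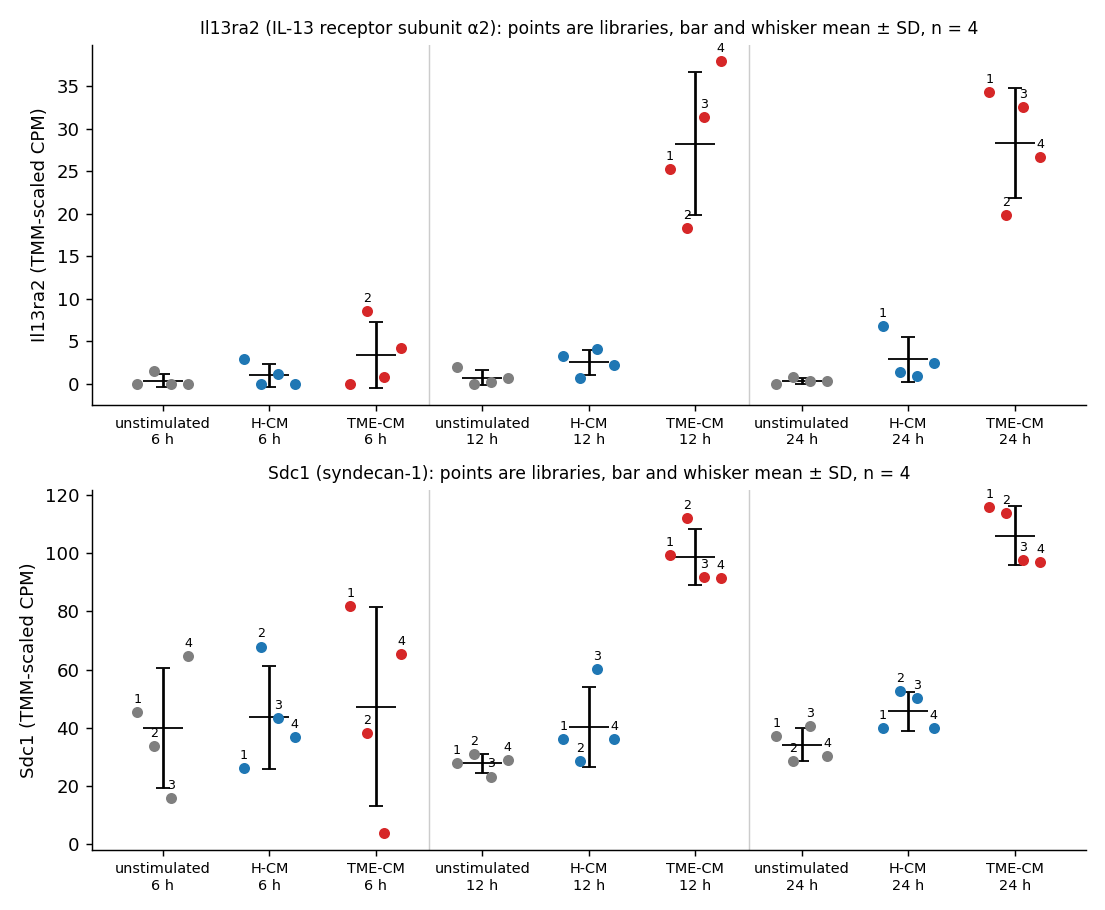
Il13ra2 (upper panel) and Sdc1 (lower panel) in each of the 36 libraries, as TMM-scaled CPM on linear axes. Points are libraries, numbered by replicate where they exceed 5 CPM, and the bar with whiskers is the mean ± SD of 4 libraries. In both panels the TME-CM libraries of 12 h and 24 h lie above all H-CM and unstimulated libraries of the same time, with Il13ra2 between 18.4 and 38.0 CPM and Sdc1 between 91.6 and 116 CPM.

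Chil1 is known to be raised in astrocytes by cytokines of the IL-1 and IL-6 families through NF-κB, STAT3 and C/EBP factors, and a list of 26 such genes was read beside it. At 24 h, 9 of the 22 tested were higher in TME-CM than in H-CM EGCs and 0 lower, beside 2.75% higher and 2.65% lower of all genes, with a median log2 fold change of 0.87. They were the cytokines Il6 and Lif, the receptor genes Osmr, Il1r1 and Il1rap, the feedback genes Socs3, Nfkbia and Bcl3, and the transcription factor gene Cebpd. Cebpd, which codes for C/EBPδ, stood at 298 ± 15.6 CPM in TME-CM and 52.1 ± 27.6 CPM in H-CM EGCs (log2 fold change 2.50, SE 0.25, adjusted p = 1.24e-05, edgeR). Socs3, a STAT3 target that limits cytokine signalling, stood at 67.6 ± 11.4 and 15.4 ± 4.12 CPM (2.13, SE 0.23, adjusted p = 3.93e-06, edgeR). With all 36 libraries in 1 model, 4 genes of the list were called.

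These genes differed from Chil1 in timing. Osmr, the oncostatin M receptor subunit, was at 142 ± 48.6 CPM in TME-CM EGCs at 6 h and at 58.1 ± 10.3 CPM at 24 h, or 245% of its later level, and Il6 was at 28.6 ± 24.6 CPM at 6 h, 41.2 ± 10.3 CPM at 12 h and 13.1 ± 6.55 CPM at 24 h. All 9 stood at 98.3% or more of their 24 h mean at 6 h, when Chil1 had no count. At 6 h, Osmr (log2 fold change 2.84, SE 0.56, adjusted p = 0.0330) and Cebpd (2.04, SE 0.42, adjusted p = 0.0441) were the 2 genes of 19 tested that edgeR called, where 0.0972% of all 9256 genes were called. Leaving out a single library ended both calls in 7 of 8 cases, the exception being TME-CM replicate 2, as did the replicate block (adjusted p = 0.102 for Osmr and 0.139 for Cebpd, edgeR), and the adjusted p rose as high as 0.299 for Osmr (H-CM replicate 2 left out) and 0.488 for Cebpd (H-CM replicate 3 left out). At 12 h, 8 of 22 were higher, beside 1.22% of all genes, Il6 the most, with a log2 fold change of 4.97 (SE 0.66, adjusted p = 0.000334, edgeR). That count was 5 without H-CM replicate 2, without H-CM replicate 4, without TME-CM replicate 1 or without TME-CM replicate 4, 5 with the replicate number as a block and 4 with all 36 libraries in 1 model. Without H-CM replicate 1 the log2 fold change of Il6 was 6.11. The cytokine genes Il1a, Il1b, Tnf and Osm were too low to be tested at 12 h and 24 h.

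From 12 h to 24 h in TME-CM, edgeR called none of the 23 tested signalling genes (0, with 2 at an unadjusted p under 0.05 and 0 by DESeq2) and none of the 7 tested binding partners (0, with 1 at an unadjusted p under 0.05 and 0 by DESeq2), where 0.626% of 13105 genes were called (0.504% higher and 0.122% lower). The 4 and 4 libraries of these times were free of overlap for 5.61% of genes, and Chil1 was not among them.

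The transcripts of reactive astrocytes were read as 3 lists, and Chil1 was in none of them. Of 12 tested pan-reactive genes, 7 were higher and 2 lower in TME-CM at 24 h, beside 2.75% and 2.65% of all genes, with a median log2 fold change of 2.14. The acute-phase gene Lcn2 stood at 993 ± 105 CPM in TME-CM and 30.9 ± 38.1 CPM in H-CM EGCs (4.97, SE 0.69, adjusted p = 0.00219, edgeR), and the protease inhibitor gene Timp1 at 939 ± 191 and 135 ± 81.2 CPM (2.80, SE 0.37, adjusted p = 0.000893, edgeR). The small heat shock protein gene Hspb1 and the sphingosine 1-phosphate receptor gene S1pr3 were the lower ones, and neither was called with all 36 libraries in 1 model (adjusted p = 0.473 for Hspb1 and 1 for S1pr3, edgeR), which called 7 genes of the list. Of 10 tested genes of the A1 list, 5 were higher and 1 lower, and of 9 tested genes of the A2 list, 3 were higher and 1 lower. Gfap, the classical intermediate filament of reactive glia, stood at 4.08 ± 2.05 CPM in TME-CM and 3.15 ± 0.736 CPM in H-CM EGCs and was not called (log2 fold change 0.45, SE 0.43). At 12 h, where 1.89% of all genes were called, the same 3 lists had 7 higher and 1 lower, 1 higher and 2 higher genes. The A1 count at 12 h was 5 without H-CM replicate 1, 2 without TME-CM replicate 1 and 5 by DESeq2. Without H-CM replicate 1 the log2 fold change of Lcn2 at 24 h was 6.29. At 6 h, 2 pan-reactive genes, Cxcl10 and Osmr, and 1 A1 gene, Gbp2, were called higher, beside 0.0972% of all genes. The call of Cxcl10 at 6 h was lost with DESeq2's size factors, with the replicate block (adjusted p = 0.102, edgeR) and without any 1 of H-CM replicates 2, 3 and 4 and TME-CM replicates 3 and 4 (adjusted p up to 0.294, edgeR), and without H-CM replicate 1 its log2 fold change went from 4.49 to 6.09.

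**Figure D5:**
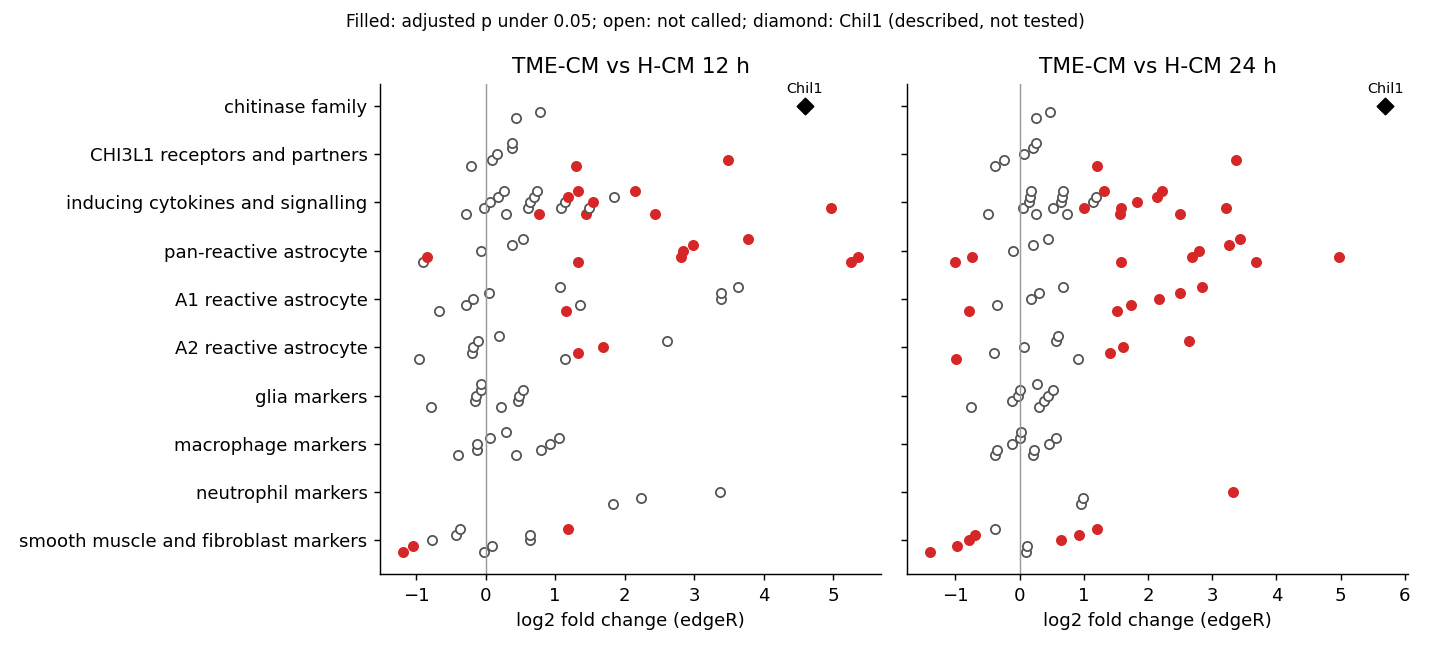
Log2 fold changes of TME-CM over H-CM by edgeR, at 12 h (left) and 24 h (right), for the tested genes of 10 lists. Filled points are genes with an adjusted p under 0.05, open points genes that were not called, and the diamond is Chil1, at 4.59 and 5.70. Chil1 lies to the right of the listed genes at 24 h, and Steap4, Lcn2 and Il6 lie to its right at 12 h.

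Likeness to Chil1 was measured as Pearson's r of log2 CPM (prior count 2) over the 36 libraries, for the 13469 genes kept over the 9 groups. The 10 genes with the highest r were Slpi (0.95), Hp (0.90), Ccl11 (0.89), Saa2 (0.89), Saa1 (0.88), Timp1 (0.88), Acat3 (0.87), Lcn2 (0.87), U90926 (0.85) and Saa3 (0.84), where the median over all genes was 0.13 and the 11th gene, Gstm1, had 0.83. Slpi and Timp1 encode inhibitors of proteases, Hp encodes haptoglobin, Saa1, Saa2 and Saa3 the serum amyloid A proteins, Lcn2 an iron-siderophore carrier and Ccl11 the chemokine eotaxin. The libraries share the medium, the time and the scaling, so these values describe a common pattern over groups.

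Slpi, with the highest r, stood at 33.8 ± 17.9 CPM in TME-CM EGCs at 24 h and 22.5 ± 16.0 CPM at 12 h, and at no more than 1.20 CPM as the mean of any other group (SD, n = 4). Hp stood at levels close to those of Chil1, at 29.3 ± 11.1 CPM at 24 h, 12.3 ± 5.48 CPM at 12 h (41.8% of the 24 h mean) and 0.693 ± 0.814 CPM at 6 h. Saa3 and Lcn2 shared the rise but were never absent: Saa3 stood at 442 ± 135 CPM in TME-CM at 6 h and 15123 ± 2309 CPM at 24 h. The TME-CM means of Ccl11 and Acat3 at 12 h were 159% and 171% of those at 24 h, with libraries that overlapped between the times.

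The likeness lay between groups more than within them. Over the 8 TME-CM libraries of 12 h and 24 h, after each group mean was taken off, r with Chil1 ranged from -0.32 (Lcn2) to 0.77 (Saa3) among the 10 genes. With the 24 libraries of 12 h and 24 h alone, 6 of the 10 stayed among the 10 nearest, with Saa1 first at 0.98, and with Spearman's rank correlation 2 did. H-CM replicate 1, which held most of the H-CM counts of Chil1, was the highest of the 4 H-CM libraries for 9 of the 10 like genes at 12 h and for 8 of 9 at 24 h, beside 26.5% and 30.7% of all genes kept. For Lcn2 it held 39.999 CPM at 12 h, against 5.26 to 9.15 CPM in the other 3 H-CM libraries, and 87.6 CPM at 24 h, against 7.42 to 18.4 CPM. The like genes were chosen on these libraries too, so this count is a description.

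Of the 5 nearest protein-coding genes on each side in the RefSeq annotation, Chit1 lies 30615 bases before it and had 0 counts, and Mybph lies 3387 bases after it and was at 0 CPM in the 3 groups of 24 h. The 4 neighbours with enough counts to be tested at 24 h were Prelp (log2 fold change 0.27, adjusted p = 0.805), Btg2 (-0.24, adjusted p = 0.557), Adora1 (0.67, adjusted p = 0.297) and Tmem183a (0.06, adjusted p = 0.897), all by edgeR. Adora1, the adenosine A1 receptor gene and the second neighbour after Chil1, stood at 12.1 ± 5.15 CPM in TME-CM and 7.78 ± 1.44 CPM in H-CM EGCs.

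Since macrophages and neutrophils can also make Chil1, the markers of other cell types were summed in each library. Summed over 11 macrophage genes, the level at 24 h was between 72.0 and 371 CPM in TME-CM, between 75.6 and 345 CPM in H-CM and between 56.6 and 229 CPM in unstimulated EGCs. By edgeR 0 of 9 tested macrophage genes differed between TME-CM and H-CM at 24 h (0 at an unadjusted p under 0.05 and 0 by DESeq2), and likewise at 12 h, where 5.4% and 1.89% of all genes were called. The sums of the 3 groups overlapped at 24 h, and the part of macrophage RNA in the Chil1 counts was not tested. Adgre1 was not analysed here.

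The summed level of 10 neutrophil genes was between 25.8 and 44.8 CPM in TME-CM at 24 h, between 7.91 and 12.1 CPM in H-CM and between 6.04 and 10.1 CPM in unstimulated EGCs, so at 24 h it was higher where Chil1 was. At 12 h it was between 15.4 and 75.5 CPM in TME-CM, between 0 and 18.6 CPM in H-CM and between 3.55 and 28.5 CPM in unstimulated EGCs, with overlap. At 6 h it went the other way, with means of 20.1 CPM in TME-CM, 68.4 CPM in H-CM and 116 CPM in unstimulated EGCs, in shallow libraries where Chil1 was near absent. S100a8, a calcium-binding protein of myeloid cells that other cells can also express, made up 21.3 ± 8.39 CPM of the TME-CM sum at 24 h and was the 1 gene called of the 3 tested (log2 fold change 3.33, SE 0.37, adjusted p = 4.88e-06, edgeR). Over all genes, 5.4% were called at 24 h and 2.75% were called higher. Of the 10 neutrophil genes, 7 had counts in TME-CM and 8 in H-CM at 24 h. Ly6g and Csf3r had 0 counts under both media at 24 h, as had Retnlg in TME-CM. At 12 h Ly6g had counts in TME-CM and also in unstimulated EGCs, and 0 in H-CM. Camp stood at 7.47 ± 4.09 CPM in TME-CM and 0.652 ± 0.652 CPM in H-CM at 12 h, without overlap. It was called there by DESeq2 and not by edgeR (log2 fold change 3.38, SE 0.98, adjusted p = 0.0953, edgeR). Mpo stood at 18.8 ± 20.4 and 5.19 ± 4.99 CPM at 12 h, with overlap, and was not called. Whether neutrophil RNA had a part in the Chil1 counts was not tested. Epithelial markers, the other known intestinal source, summed to 1.67 to 7.27 CPM in TME-CM and 0.971 to 5.56 CPM in H-CM at 24 h. The 1 gene tested of 8, Krt18, was lower in TME-CM at an unadjusted p under 0.05 by edgeR. Krt18 was not called by edgeR (log2 fold change -1.67, SE 0.68, adjusted p = 0.1995) or by DESeq2.

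Glial markers were present in the groups of 24 h. Sox10 stood at 65.7 ± 1.72 CPM in TME-CM and 65.3 ± 5.46 CPM in H-CM EGCs at 24 h, and by edgeR 0 of 9 tested glial genes were called (2 at an unadjusted p under 0.05 and 1, S100b, by DESeq2), beside 5.4% of all genes. S100b, a calcium-binding protein of glia, stood at 48.3 ± 16.8 CPM in TME-CM and 80.0 ± 22.4 CPM in H-CM at 24 h (log2 fold change -0.76, SE 0.24, adjusted p = 0.0847, edgeR). The 10 glial genes summed to between 251 and 340 CPM in TME-CM and between 293 and 312 CPM in H-CM, whereas 10 smooth muscle and fibroblast genes summed to between 7463 and 8984 CPM and between 7466 and 8600 CPM. In unstimulated EGCs at 24 h the latter sum was between 11852 and 14346 CPM. Of these 10 genes, 3 were higher (Dcn, Lum and Pdgfra) and 4 lower (Acta2, Cnn1, Des and Myh11) in TME-CM than in H-CM at 24 h, beside 2.75% and 2.65% of all genes, and the part of such cells in the Chil1 counts was not tested. Of 8 tested neuronal genes edgeR called 0 at 24 h (1 at an unadjusted p under 0.05 and 0 by DESeq2).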

How the data were processed

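Deposited per-gene counts of 36 QuantSeq 3′ mRNA libraries were used. According to the study's methods the authors sequenced on a HiSeq4000 system, used FastQC 0.11.7 for read quality and fastq-mcf for adapters. HISAT2 placed the reads on mm10, reads with more than 1 locus were dropped, and HT-seq Count gave the count of each gene. The authors deposited these counts without normalization. A 3′ tag count is not scaled by transcript length. The annotation, the strand setting and any use of molecular identifiers are not given in the sources used here. Whether a count is a read or a molecule is therefore not known, and the counting intervals treat counts as independent. Library totals were 13518 to 5244763 counts at 6 h, 2005239 to 5961933 at 12 h and 1608018 to 7552509 at 24 h, so levels at 6 h are the least precise. The entry Yam1 took 11.0% to 48.6% of the counts of a library.

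Levels are CPM on library sizes scaled by TMM over the 36 libraries. Tests used edgeR 4.0.16 in R 4.3.3 (filterByExpr with a minimum count of 10, TMM, robust quasi-likelihood, 1 mean per group) on the 12 libraries of a time point, or the 24 of 12 h and 24 h, with Benjamini-Hochberg adjustment over all genes tested and calls at an adjusted p under 0.05. DESeq2 1.42.0 was an alternative. The methods of the study use DESeq2. Ratios of pooled counts have exact 95% intervals. The calling was tested on simulated counts. Named genes are Chil1, members of 12 fixed lists, the 10 genes most like Chil1 by Pearson's r and the 5 nearest protein-coding genes on each side. Gm26902 and Gstm1 were named after their values were seen. Chil1 and the lists were chosen with earlier results of these data known. Alternatives were DESeq2's size factors, no filter, DESeq2's Wald test, a replicate block, 1 joint model of 36 libraries, library totals, a prior count and each library left out. Leaving out Yam1, and likeness without H-CM replicate 4 of 6 h, were added after seeing the data.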

Additional observations from a re-analysis of the deposited data

Results flagged for a closer look

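In 5 of the 8 groups in which Chil1 varied, 1 library lay far from the other 3. In 4 of these a single library had 1 to 3 counts and the others 0, which meets the rule by construction, so the rate of about 1 in 20 groups that chance gives for continuous values does not apply to them. In unstimulated EGCs this was replicate 1 at 6 h (3.23 CPM, from 3 counts), replicate 4 at 12 h (0.273 CPM, from 2 counts) and replicate 1 at 24 h (0.250 CPM, from 1 count), with 0 counts in the other libraries of each group. In H-CM EGCs it was replicate 2 at 6 h (0.527 CPM, from 1 count) and replicate 1 at 12 h (1.88 CPM, from 7 counts). None of the TME-CM groups met the rule.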

How the results depend on the processing

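For Chil1, the TME-CM mean at 24 h was 37.0 CPM with Yam1 left out of the table, since the total then shrinks, and its log2 fold change against H-CM at 24 h was 4.91 with a prior count of 2. With 1 library left out that value was 5.28 to 6.46, with 4.23 to 6.43 at 12 h and 0.91 to 1.34 for 24 h over 12 h in TME-CM. Of the 10 like genes, 6 stayed with the 24 libraries of 12 h and 24 h and 2 with Spearman's rho. With all 36 libraries in 1 model, TME-CM against H-CM gave 71 calls at 24 h (binding partners 0, signalling 4, A1 2, A2 2), 81 at 12 h and 899 at 6 h, H-CM against unstimulated 34 and TME-CM 24 h against 12 h 2. Without a filter the counts were 465 at 12 h, 41 at 6 h, 446 and 175, and by DESeq2's Wald test 383, 23, 410 and 165. DESeq2's size factors gave 2 calls at 6 h. With 1 library left out, 417 to 776 genes were called at 24 h, 137 to 297 at 12 h, 2 to 25 at 6 h, 161 to 250 for H-CM against unstimulated and 43 to 90 for 24 h against 12 h. The cause of these shifts was not tested.

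Same-numbered libraries of TME-CM and H-CM deviated together with r of -0.03 to 0.09 at 24 h, 0.01 to 0.06 at 12 h and -0.03 to 0.06 at 6 h. The values were 0.04 to 0.13 for H-CM and unstimulated EGCs at 24 h, and 0.03 to 0.20 between 24 h and 12 h in TME-CM. The numbers were not taken to pair samples in the main fits, and whether a number marks a shared source was not tested. With the replicate block, 675 genes were called at 24 h, 207 at 12 h, 4 at 6 h, 245 for H-CM against unstimulated and 99 for 24 h against 12 h, and the log2 fold change of Chil1 was 5.85 at 24 h and 4.91 at 12 h. No result reversed. The low depth at 6 h limits what a count of 0 shows for Chil1 there.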
